A study of Mus musculus with 4 samples.

Results

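Most genes of MPP3 cells had few stretches of chromatin that were open in every library, and 77 genes had 12 or more. MPP3 cells are multipotent progenitors of the bone marrow that lean towards granulocytes and monocytes. The 77 genes are the protein-coding genes under 200 kb on chromosomes 1 to 19 with at least 12 shared open regions in the gene body or within 10 kb of it, and they are called dense genes here. They made up 0.39% of the 19720 genes of that length, and their windows held 1028 of 43392 shared regions, or 2.37%. No region lay in the windows of 2 dense genes. The genes were chosen by their measured number of shared regions, so that number is given as a description throughout and is not tested.

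The assay was ATAC-seq, which uses a transposase to tag accessible DNA with adapters, on 4 libraries from bone marrow of WT-iMOS mice aged 3 months. Of these, 2 are labelled T1 and 2 are labelled T2, and the series asks what Bcl11a, a zinc-finger repressor, does within MPP3 cells. What T1 and T2 mean is not explained in the labels, and neither is whether replicates are different animals, so the spread between replicates may be technical only. Peak names begin with WG in both T1 lists and with MG in both T2 lists, and these prefixes are not explained either. Each library is a list of peaks, the intervals that the authors' peak caller found enriched over local background, on mouse build mm10. A region is a set of overlapping peaks joined across the lists, and it is shared when all 4 lists have a peak in it.

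Long genes of blood cells often carry open chromatin both at their start sites, where transcription begins, and inside introns or flanking sequence, where enhancers can lie. Enhancers are short elements that bind transcription factors and raise transcription from a distance. A peak reports that DNA was accessible, not which gene it serves or whether that gene was transcribed.

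The T1 lists held 58469 and 54057 peaks and the T2 lists 66776 and 62718, and read depth is unknown because peak lists carry no read counts. A start-site peak was present at 9, 9, 10 and 10 of 10 MPP3 and myeloid progenitor markers in T1 replicates 1 and 2 and T2 replicates 1 and 2, with Mpo without one in both T1 lists. For markers of other cells, the numbers in the same order were 2, 2, 3 and 4 of 6 lymphoid genes, with none at Cd3e and Cd8a, and 3 in each list of 4 erythroid genes. They were 3, 3, 1 and 2 of 5 mature myeloid genes, 4 in each list of 6 stromal and endothelial genes, and 1, 1, 3 and 3 of 5 neural and epithelial genes. The part of other cells in the values below was not tested.

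Regions at the RefSeq start sites of dense genes ranged widely in strength, from a mean rank of 99.3 at Ankrd11 to 3.13 at Tcf20. The scale is defined below. The only start site listed for Tcf20 lies deep in the gene, and its region is 76121 bp from the annotated gene start. The strongest Tcf20 region, 278 bp from the annotated gene start, had a mean rank of 80.9. The 5 start sites shown, which do not reach the weak end, belong to genes with known roles in blood cells. They include both strong and middling ones. Each is the RefSeq promoter window of GRCm38.p6, from 250 bases before to 50 after a start site, 5′ to 3′ on the gene's strand, and each overlaps a shared region. Capitals mark, on either strand, GGGCGGG (the GC box of Sp and Kruppel-like factors), CCGGAAG (a core bound by many ETS factors), AGGAAGT (an ETS core of the PU.1 type), AGATAA (bound by factors of the GATA family), TGTGGTT (bound by RUNX factors), TTGCGCA (bound by C/EBP factors) and TGANTCA (bound by AP-1). These are the windows of Jak1 (chr4:101265174-101265473, minus strand), Zfpm1 (chr8:122281891-122282190, plus), Meis1 (chr11:19018920-19019219, minus), Nfix (chr8:84775779-84776078, minus) and Cdk6 (chr5:3343643-3343942, plus).
Jak1: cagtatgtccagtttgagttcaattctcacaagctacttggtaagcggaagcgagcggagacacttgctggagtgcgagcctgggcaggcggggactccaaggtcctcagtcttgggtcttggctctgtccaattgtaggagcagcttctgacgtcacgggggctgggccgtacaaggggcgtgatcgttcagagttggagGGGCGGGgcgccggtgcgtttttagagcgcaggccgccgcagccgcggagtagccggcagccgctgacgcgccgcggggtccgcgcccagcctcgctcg
Zfpm1: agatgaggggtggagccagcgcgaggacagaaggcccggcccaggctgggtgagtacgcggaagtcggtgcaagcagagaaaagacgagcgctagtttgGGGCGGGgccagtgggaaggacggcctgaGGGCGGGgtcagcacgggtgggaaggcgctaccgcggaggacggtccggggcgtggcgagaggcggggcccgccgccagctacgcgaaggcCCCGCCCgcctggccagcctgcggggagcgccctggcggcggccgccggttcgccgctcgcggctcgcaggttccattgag
Meis1: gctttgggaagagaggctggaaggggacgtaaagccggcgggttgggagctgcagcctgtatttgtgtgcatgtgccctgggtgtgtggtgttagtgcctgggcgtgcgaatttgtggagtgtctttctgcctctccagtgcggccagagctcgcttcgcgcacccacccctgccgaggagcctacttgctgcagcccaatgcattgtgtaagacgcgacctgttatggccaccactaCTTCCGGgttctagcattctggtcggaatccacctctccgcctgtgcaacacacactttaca
Nfix: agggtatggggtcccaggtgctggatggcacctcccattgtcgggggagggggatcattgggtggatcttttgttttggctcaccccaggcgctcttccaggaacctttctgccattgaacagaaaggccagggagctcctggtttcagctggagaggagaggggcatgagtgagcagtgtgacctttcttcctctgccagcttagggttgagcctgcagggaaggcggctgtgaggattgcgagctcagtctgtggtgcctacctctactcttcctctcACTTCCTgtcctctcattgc
Cdk6: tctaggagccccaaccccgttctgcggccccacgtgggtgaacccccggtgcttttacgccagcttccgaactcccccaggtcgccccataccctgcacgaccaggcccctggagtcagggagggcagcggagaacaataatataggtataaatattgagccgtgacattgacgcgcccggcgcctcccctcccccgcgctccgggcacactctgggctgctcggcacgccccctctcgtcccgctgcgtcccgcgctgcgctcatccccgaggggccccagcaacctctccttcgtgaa

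Strength is given below as a rank among shared regions, from 0 for the weakest to 100 for the strongest of the 43392 in the same library by the authors' −log10 q, which is the peak's own significance. Ranks are used because −log10 q is not comparable between lists of different length. The Jak1 start-site region ranked 93.4 and 92.1 in T1 and 90.1 and 93.6 in T2, and that of Zfpm1 ranked 87.3 and 90.9 in T1 and 79.1 and 76.7 in T2. The Meis1 region ranked 76.8 and 79.7 in T1 and 82.9 and 83.3 in T2. All 3 were thus in the upper part of the scale in every library, with Zfpm1 higher in T1 and Meis1 higher in T2. The Cdk6 region ranked lower, at 52.7 and 44.9 in T1 and 41.7 and 20.5 in T2. The Nfix region, at 1 of 4 annotated start sites of the gene, ranked 39.8 and 54.9 in T1 and 36.1 and 28.0 in T2. The windows of Jak1, Zfpm1 and Cdk6 are rich in CpG dinucleotides, with 29, 37 and 27, whereas that of Nfix has 4.

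The 77 genes held 12 to 18 shared regions, with a median of 13, against a median of 2 over all genes under 200 kb. They were long, from 39.5 to 199.6 kb with a median of 139 kb, and the share of genes that were dense went from 0.0281% of those of 25 to 50 kb to 6.71% of those of 150 to 200 kb. Across all genes under 200 kb the number of shared regions went with length (Spearman correlation 0.41). Genes share libraries and are not independent. Across the 77 the correlation was 0.08. Those genes were chosen for 12 or more regions and a length under 200 kb, so this value cannot be compared with 0.41. Another 140 genes of 200 kb or longer also had 12 or more and are excluded by length alone. The cut at 12 passes through many alike genes, with 29 dense genes at exactly 12 and 36 others at exactly 11. Those at 12 with the highest mean within-list percentile, where 100 is the strongest peak of the list, were Itpkb, Adgrg1, Itsn1, Myo18a and Atp10a. At 11 they were Ccnd3 (82.4), Ppard (77.9), Fyb (73.4), Mrtfa (68.0) and Mta3 (67.3).

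**Figure D1:**
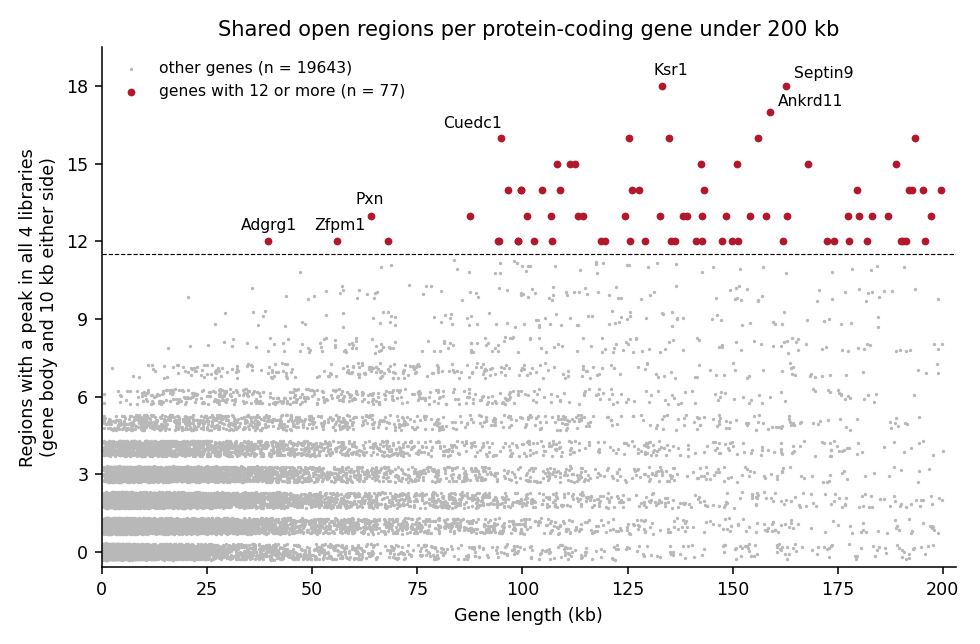
Shared open regions (vertical axis) against gene length in kb (horizontal axis) for each protein-coding gene under 200 kb; red points are the 77 genes with 12 or more, grey points the others, spread slightly up and down so that they can be seen, and the dashed line separates them. The red points lie between 39.5 and 199.6 kb, with Adgrg1 the shortest and Ksr1 and Septin9 the highest at 18.

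Shared regions lay mostly in gene bodies, with spacing that differed between genes. How evenly they were spread within a gene was not tested. Of the 1028, 897 lay in gene bodies and 131 in the 10 kb flanks, and the median distance between neighbouring regions of a gene ranged from 3833 bp at Ubash3b to 19061 bp at Dip2b. The 5 regions lying closest together spanned from 11703 bp at Adgrg1 to 54820 bp at Tbc1d1, with a median of 24342 bp. The largest gap without a shared region ranged from 9867 bp at Capzb to 86979 bp at Atp10a. Regions were short, with a median of 680 bp (quartiles 541 and 911) against 725 bp (563 and 968) for other shared regions. They covered from 3.58% of the window at Ccdc162 to 15.3% at Adgrg1.

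Pooled over the dense genes, shared regions lay in every part of the gene body and in both flanks. Among the 63 with a start site and strand in the RefSeq table, 844 regions were placed. With the gene body split into 4 equal parts in the direction of transcription, the parts held 26.3%, 24.4%, 19.7% and 16.9%. The flank upstream held 6.99% and the flank downstream 5.69%. In 3363 other genes of 39 to 200 kb, the first part held 33.8% of 11700 regions and the later ones 14.5%, 13.0% and 13.0%, with 12.9% and 12.8% in the flanks. Per 10 kb, dense genes had 1.004 regions in the first part and 0.647 in the last, and other genes 0.574 and 0.221. These values depend on the number of regions that chose the genes, so they are a description, with no test.

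**Figure D2:**
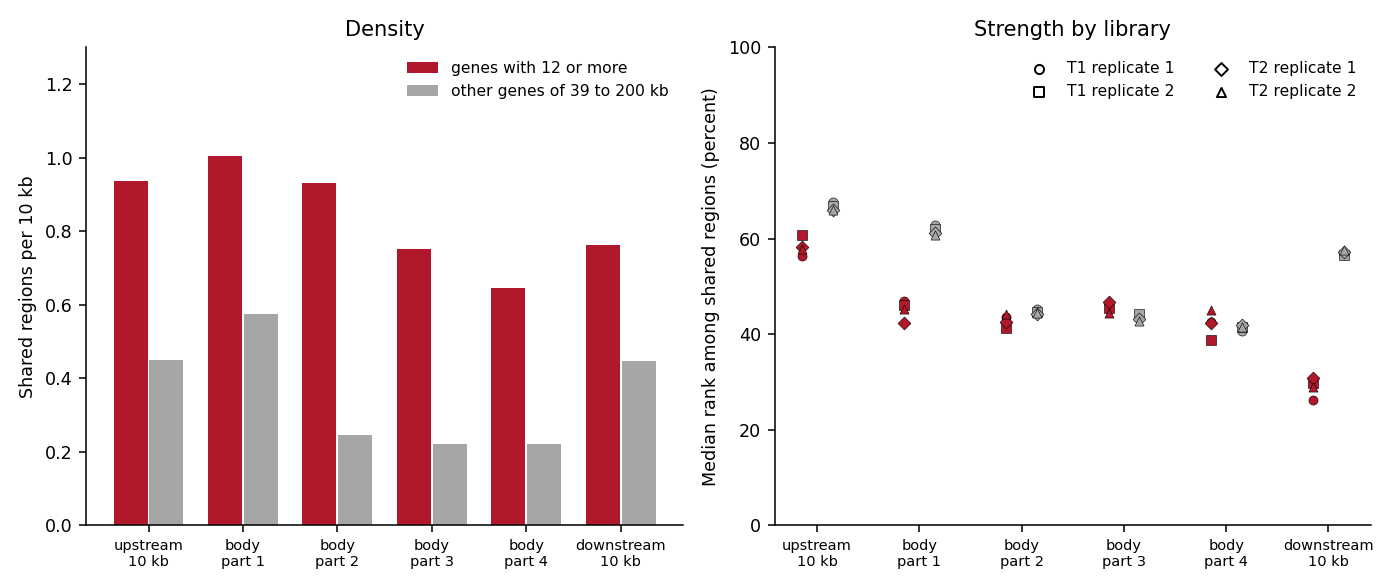
Left, shared regions per 10 kb in the 10 kb flanks and the 4 equal parts of the gene body for dense genes (red, 63 genes) and other genes of 39 to 200 kb (grey, 3363 genes). Right, the median rank of those regions among all shared regions, in percent, with 1 symbol per library; in the downstream flank the red symbols lie at 26.2 to 30.8 and the grey ones at 56.5 to 57.5.

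**Figure D3:**
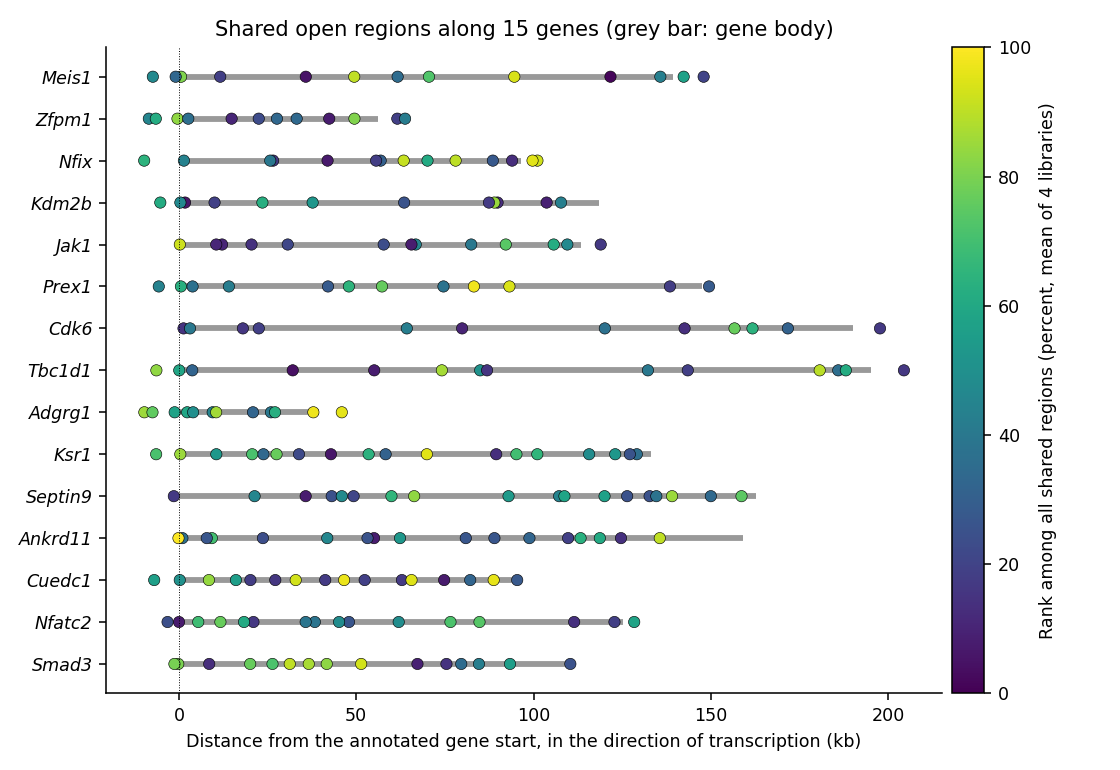
Shared regions along 15 dense genes, as distance in kb from the annotated gene start in the direction of transcription; grey bars are gene bodies and colour gives the mean rank over the 4 libraries. Strong (yellow) regions occur at the start (Ankrd11, Jak1), deep in the body (Prex1, Cuedc1, Meis1) or near the 3′ end (Nfix, Adgrg1), with weaker ones between them.

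By function, the dense genes include 17 of transcription and chromatin, 22 of signalling, 8 of the cell surface and adhesion, 7 of the cytoskeleton, 6 of glycan synthesis and 4 of membrane traffic, a grouping made after the genes were known. The remaining 13 were not grouped. Gene medians of the mean rank were 41.6 for transcription and chromatin and 47.5 for signalling, with ranges of 23.9 to 70.5 and 22.9 to 69.5 that overlapped almost wholly.

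Among the transcription regulators, Meis1, a homeodomain partner of HOX proteins in stem cells and leukaemia, had 13 shared regions (chr11:18880428-19019651), 9 of them in the body. Its strongest region was not at the start but inside the gene, at chr11:18924604-18925529, with −log10 q of 151 and 147 in T1 and 164 and 129 in T2. Zfpm1, the FOG1 cofactor of GATA factors in the erythroid and megakaryocyte lines, had 12 (chr8:122281856-122337862), of which 7 lay in its short body. That is 1.58 per 10 kb of the gene with its flanks. Its gene-wide median ranks were 28.9 and 31.0 in T1 and 35.0 and 44.7 in T2, so the strong start-site region stood well above the rest of the locus. That region also lay within 1 kb of a start site of Gm39269. Nfix, a nuclear factor I protein of stem and progenitor cells, had 14 (chr8:84704712-84801238). The strongest of them, at chr8:84701126-84701890 with −log10 q of 168 and 146 in T1 and 197 and 140 in T2, lay beyond its 3′ end at the start site of Lyl1, which encodes a bHLH factor of blood progenitors. The window assigns this region to Nfix by distance alone.

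Smad3, which carries TGF-beta signals to DNA, had 15 regions (chr9:63646766-63757994) that ranked high as a group, with medians of 73.2 and 76.9 in T1 and 62.7 and 69.2 in T2. Nfatc2 and Nfatc1, the calcium-responsive NFAT factors, had 16 (chr2:168476410-168601657) and 13 (chr18:80606205-80713071). Nfatc2 medians were 45.2 and 45.5 in T1 and 41.6 and 45.7 in T2, and its strongest region ranked 76.9, so the locus had many regions of middle strength. Tcf7l2, a transcription factor of Wnt signalling, had 14 (chr19:55741797-55933659), and Zfp710, a zinc-finger gene, had 12, of which 11 lay in its body of 67.9 kb. Among regulators of chromatin, Ankrd11, a regulator that binds histone deacetylases, had 17 (chr8:122883321-123042284) and Kdm2b, a CpG-binding histone demethylase, 12 (chr5:122870664-122989270). Arid5b, a DNA-binding partner of a histone demethylase, had 13 (chr10:68092523-68279355). The Ankrd11 start-site region, chr8:123041925-123042935, was the strongest of all 1028 by mean rank, with −log10 q of 281 and 207 in T1 and 307 and 212 in T2. It also lay within 1 kb of a start site of 2810013P06Rik. The median region of Ankrd11 was far below it, at 38.03 and 48.28 in T1 and 25.1 and 28.7 in T2.

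Of the signalling genes, Ksr1, a scaffold of the Ras and MAP kinase pathway, had 18 shared regions (chr11:79013440-79146533) with medians of 57.6 and 55.4 in T1 and 48.3 and 54.4 in T2. Spred2, an inhibitor of that pathway, had 14 (chr11:19924442-20024026). Pip4k2a, a lipid kinase, and Prkch, a protein kinase C, had 16 each, and Pik3ap1, an adaptor that couples receptors to PI3-kinase, had 15 (chr19:41272541-41385102). The Pik3ap1 medians were 69.0 and 67.1 in T1 and 71.3 and 69.8 in T2, a narrow band in the upper part of the scale. Jak1, the kinase of many cytokine receptors, was at the other end, with 13 regions (chr4:101151974-101265282) and medians of 18.2 and 40.0 in T1 and 25.3 and 22.8 in T2. T1 replicate 2 stood apart there, and the gene combined its strong start-site region with mostly weak ones. Itpkb, an inositol trisphosphate kinase, had 12 (chr1:180330390-180424802) with medians of 72.6 and 72.4 in T1 and 63.6 and 69.4 in T2.

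Ptk2b, a kinase of adhesion and calcium signalling, had 14 (chr14:66153257-66281100), and Ubash3b, a phosphatase that dampens tyrosine kinase signals, had 15 (chr9:41010760-41161692). Ptpre, a tyrosine phosphatase, had 13 (chr7:135537824-135686294). Its start-site region, chr7:135537318-135538288, had −log10 q of 290 and 204 in T1 and 222 and 201 in T2. The GTPase regulators were Prex1, a Rac exchange factor (12, chr2:166566345-166713832), Bcr, a Rac-directed regulator (13, chr10:75060560-75184923), Dab2ip, a Ras-directed one (12, chr2:35558446-35730994), and Tbc1d1, a Rab-directed one (14, chr5:64156305-64351486). Prex1 and Bcr each held a region among the 10 strongest of the set that lay far inside the gene. They were chr2:166630196-166631096, with −log10 q of 213 and 160 in T1 and 217 and 228 in T2, and chr10:75136989-75137783, with 204 and 209 in T1 and 209 and 216 in T2. Itsn1, an endocytic scaffold, had 12 (chr16:91729310-91920591) and a further strong internal region. Cdk6, the D-cyclin kinase of blood progenitors, had 12 (chr5:3341004-3531008) with low medians of 32.3 and 30.7 in T1 and 25.5 and 19.95 in T2.

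Adgrg1, which encodes the adhesion receptor GPR56 of stem and progenitor cells, was the most compact dense gene. It had 12 regions, 8 of them in its body of 39.5 kb (chr8:94974756-95014208), or 2.02 per 10 kb of window. All 12 regions in its window were shared, which held for no other dense gene. Its medians were 61.8 and 60.5 in T1 and 64.3 and 71.1 in T2, and its weakest region still had a mean rank of 32.4. The strongest, chr8:95012205-95013108, lay near the 3′ end with −log10 q of 183 and 171 in T1 and 224 and 205 in T2. Pxn, which encodes the focal adhesion protein paxillin, had 13 regions, 9 in its body of 64.0 kb (chr5:115491970-115555987) and 4 in the flanks. They ranked high, at 68.4 and 70.6 in T1 and 69.8 and 72.6 in T2. The strongest was at the start site of the neighbouring ribosomal protein gene Rplp0. Sema4d, a semaphorin of leukocytes, had 15 (chr13:51685529-51793678), Itgb5, an integrin subunit, 12 (chr16:33829665-33949338), and Rftn1, a lipid raft protein, 13 (chr17:49993258-50190497).

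Of the cytoskeletal genes, Septin9, a filament-forming GTPase, had 18 (chr11:117199661-117362325), the same number as Ksr1, and medians of 44.6 and 43.8 in T1 and 43.8 and 52.2 in T2. The myosins Myo1e and Myo18a had 14 (chr9:70207350-70400067) and 12 (chr11:77763240-77865988), and Trak1, an adaptor of mitochondrial transport, had 13 (chr9:121297502-121474919). Cuedc1, a ubiquitin-binding CUE domain gene, had 16 regions, 14 of them in its body of 95 kb (chr11:88099146-88194140). Its strongest region, chr11:88145233-88146203, had −log10 q of 209 and 151 in T1 and 196 and 192 in T2. Ahnak, a giant scaffold protein, had 13 (chr19:8989284-9076935), and the phospholipid flippase Atp10a had 12 (chr7:58656142-58830244).

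Some counts include regions inside other genes. Tg, the thyroglobulin gene, which is used in the thyroid, had 13 shared regions (chr15:66670754-66850721), of which 4 lay in Sla, an adaptor of leukocyte receptors nested in it. Macrod1 had 12, of which 7 lay in the nested gene Flrt1. In all, 40 of the 1028 regions lay in the body of another protein-coding gene. The strongest region of a dense gene lay in the gene body in 62 of 77 and in a flank in 15, and in 12 genes it was at an annotated start site of another gene. No other protein-coding gene lay in the window of 28 dense genes (36.4%), against 1980 of 4800 other genes of the same lengths (41.2%).

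In lists of blood cell genes, dense genes were few. Nfix and Zfpm1 belong to the BCL11A partners and globin regulators, and Arid5b and Kdm2b to the chromatin genes. Of RUNX, ETS and other blood transcription factors, 2 of 26 members under 200 kb were dense (Nfix and Nfatc1). The stem cell list held 1 of 24 (Meis1), the erythroid and megakaryocyte list 1 of 27 (Zfpm1), the signalling list 1 of 32 (Jak1) and the cell cycle list 1 of 30 (Cdk6). Of the 23 lists, 15, among them granulocyte-monocyte, lymphoid, interferon and housekeeping genes, held 0. List medians ran from 1 to 6 shared regions beside 2 over all genes under 200 kb. The lists differ in length as well, with a median of 54.1 kb for BCL11A partners and 10.6 kb for granulocyte-monocyte genes.

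With regions at start sites and away from them pooled, the regions of dense genes were slightly weaker than other shared regions in every library. Their median −log10 q was 29.7 and 23.1 in T1 and 35.0 and 29.9 in T2, against 33.4 and 26.5 in T1 and 40.1 and 33.5 in T2 for the 42364 other shared regions. As ranks among shared regions, the medians were 45.6, 44.9, 44.5 and 45.3 against 50.2, 50.1, 50.2 and 50.1. The difference was −5.06 ± 0.469 (SD, n = 4 libraries) and had the same sign in all 4 libraries, with an exact two-sided sign-flip permutation p = 0.125, the smallest that 4 libraries allow. In percentiles of the whole list it was −4.01 ± 0.431 by −log10 q (exact permutation p = 0.125) and −14.2 ± 0.674 by the authors' fold enrichment (exact permutation p = 0.125). Very strong regions were fewer as well, and very weak ones slightly fewer. Of the 1028, 68 (6.61%) had a mean rank of 90 or above, where 9.53% of all shared regions did. A mean rank below 10 was found in 6.61%, where 7.17% of all shared regions had one.

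Regions at start sites and away from them were compared separately, and the contrast between the 2 was not tested itself. On chromosomes with start-site entries in the RefSeq table, 111 regions lay within 1 kb of a start site of any gene, with median ranks of 63.8 and 61.9 in T1 and 62.7 and 58.1 in T2. The 10912 other shared regions at start sites ranked 77.3 and 76.3 in T1 and 75.9 and 74.5 in T2, so dense genes were lower by 13.2 to 16.5 in each library (mean −14.4 ± 1.51 SD, n = 4, exact permutation p = 0.125). The 890 regions away from start sites ranked 43.3 and 42.4 in T1 and 42.9 and 43.8 in T2, beside 42.4 and 42.8 in T1 and 42.6 in both T2 libraries for the 30155 others. There the difference in rank was 0.487 ± 0.693 (SD, n = 4, exact permutation p = 0.375), with signs that differed between libraries. By fold enrichment, dense-gene regions were lower in every library in both places. Away from start sites their median within-list percentiles were 46.8 and 45.6 in T1 and 50.9 and 49.1 in T2. The others had 56.8 and 53.8 in T1 and 61.8 and 59.4 in T2. At start sites the values were 48.8, 44.5, 45.9 and 45.8 against 73.9, 72.8, 74.5 and 73.4. These fold differences were not tested.

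Nearly every dense gene had a shared region within 1 kb of a listed start site of its own. These were 61 of the 63 with an entry, and the exceptions were Arid5b and Cmah. Taking the strongest start-site region of each gene, the medians over the 61 were 76.8 and 73.7 in T1 and 71.3 and 70.5 in T2. Over 2916 other genes of 39 kb or longer they were 81.7 and 80.8 in T1 and 79.2 and 77.4 in T2, a difference of −6.72 ± 1.26 (SD, n = 4, exact permutation p = 0.125). Against 226 of those other genes, the ones with 8 to 11 shared regions, the difference was −0.54 ± 1.29 (SD, n = 4, exact permutation p = 0.5), smaller than the spread between libraries. A start-site region was the strongest of the gene in 17 of 63 dense genes (27.0%), and in 82 of 254 genes (32.3%) with 8 to 11 and a start-site entry, whatever their length under 200 kb. Listed start sites can lie inside a gene. At Tcf20 the strongest region, 278 bp from the annotated gene start, is therefore not counted as a start-site region.

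Promoter sequence of the dense genes is set beside that of all promoters over a shared region, whose genes can have any length. In the 79 such windows of 60 dense genes, the median number of CpG dinucleotides was 23, against 21 over 13680 windows. The ETS core CCGGAAG, searched on both strands, was in 3 of the 79 (3.80%), against 17.4% of all, and AGGAAGT was in 10 (12.7%), against 9.12%. GGGCGGG was in 51.9% against 48.0%, and AGATAA in 2 windows (2.53%) against 5.60%. TGTGGTT was in 1 window (1.27%) against 3.88%, TTGCGCA in 3 (3.80%) against 3.48%, and TGANTCA in 3 (3.80%) against 4.63%. Windows of 1 gene can overlap, and these matches are a description. By gene, CCGGAAG was in 3 of 60 dense genes and in 18.6% of 11716 genes. Within windows of 25 or more CpG, the median mean rank was 73.2 for dense genes and 82.8 for all, and within those of 5 to 14 it was 46.9 and 68.2.

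Between T1 and T2, the strength of dense-gene regions relative to other shared regions hardly moved. Ranks among shared regions averaged 45.3 in T1 and 44.9 in T2, a difference of −0.363 (exact permutation test over libraries, p = 0.667, where 2 against 2 cannot go below 0.333). In percentiles of the whole list, medians were 58.3 and 54.1 in T1 and 62.5 and 60.5 in T2. That is 5.33 higher in T2 (exact permutation p = 0.333), and it was 5.15 higher over all shared regions, whose percentiles depend on how long each list is. Both T2 libraries were above both T1 libraries in rank at 278 of 1028 regions (27.0%, 95% Wilson interval 24.4 to 29.8), where 26.4% of all shared regions were, and the opposite held at 272 (26.5%, 23.9 to 29.2), where 26.2% did. In within-list percentile the counts were 429 (41.7%) higher in T2, where 40.7% of all shared regions were, and 156 (15.2%) higher in T1, where 14.2% were. These shares lay near the background. All intervals cover counting error alone.

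Taken by gene, median ranks of both T2 libraries were above both T1 libraries in 16 of 77 dense genes (20.8%, Wilson interval 13.2 to 31.1), where 24.6% of genes with a shared region were. They were below in 23 (29.9%, 20.8 to 40.8), where 27.1% were. In within-list percentile 40 of 77 were higher in T2 (51.9%, 41.0 to 62.7; 41.6% of genes) and 7 in T1 (9.09%, 4.47 to 17.6; 11.9% of genes). The genes named here had the widest differences in that percentile among genes whose groups did not overlap. On the T2 side, Itgb5 had median ranks among shared regions of 29.2 and 21.9 in T1 and 36.3 and 40.8 in T2, and Dab2ip 20.7 and 12.7 in T1 and 30.1 and 28.3 in T2. Myo1e had 21.98 and 25.67 in T1 and 37.3 and 34.8 in T2, Tcf7l2 34.5 and 29.0 in T1 and 44.5 and 38.1 in T2, and Zfpm1 the values given above. In these genes the T2 values were the higher and the groups did not overlap.

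On the T1 side, Ankrd11 had 38.03 and 48.28 in T1 and 25.1 and 28.7 in T2, the widest difference in rank of the 77 at −16.2. Arid5b had 49.2 and 50.7 in T1 and 33.1 and 36.4 in T2, and Ptpre 75.9 and 77.2 in T1 and 58.9 and 63.9 in T2. Smad3, given above, was lower in T2 by 9.11, and Trak1 had 54.2 and 58.0 in T1 and 46.2 and 46.3 in T2. None of the gene-level differences can have an exact p below 0.333, and groups that do not overlap were about as common among all genes.

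**Figure D4:**
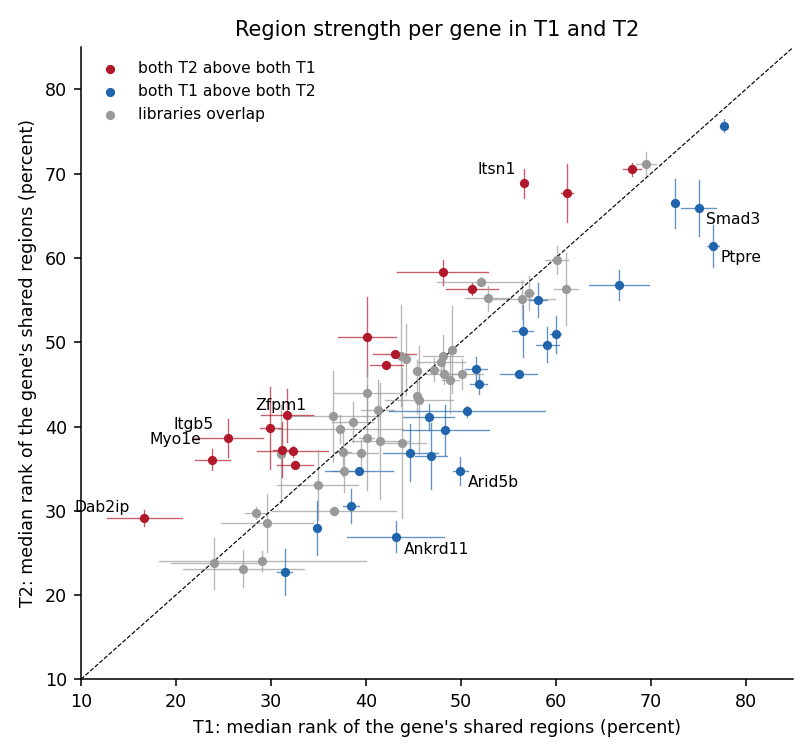
Median rank among shared regions of each of the 77 dense genes in T1 (horizontal axis) and T2 (vertical axis), in percent; points are means of 2 libraries and bars run from one library to the other. The 16 red genes have both T2 libraries above both T1, the 23 blue genes the opposite, and grey genes overlap; Ankrd11, Ptpre and Arid5b lie farthest below the dashed line of equal rank.

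Single regions moved further than genes, and in opposite ways within 1 locus. Septin9 held both the widest T2-side and the widest T1-side difference of the 1028 in within-list percentile. The region chr11:117306592-117307181 had ranks of 18.5 and 25.4 in T1 and 65.2 and 69.5 in T2. The region chr11:117325662-117326496 had 42.5 and 53.5 in T1 and 4.10 and 0.671 in T2. The gene-wide Septin9 medians in rank, given above, overlapped between groups, and those in within-list percentile did not, at 57.4 and 53.1 in T1 and 61.9 and 65.8 in T2. Inside Zfpm1, chr8:122309145-122309821 ranked 22.2 and 6.03 in T1 and 55.4 and 50.1 in T2, and inside Bcr, chr10:75120992-75121419 ranked 23.2 and 14.7 in T1 and 59.5 and 58.0 in T2. Plxnc1, a semaphorin receptor gene, and the glycosyltransferase gene Xxylt1 held the other T2-side regions, with −log10 q of 14.97 and 15.05 in T1 and 63.6 and 39.8 in T2, and of 20.2 and 14.2 in T1 and 59.2 and 55.1 in T2.

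On the T1 side, a narrow region of Aff1, a gene of transcription elongation, at chr5:103705901-103706286 ranked 67.4 and 69.8 in T1 and 5.61 and 28.8 in T2. A region just inside the start of Ubash3b, chr9:41160572-41161106, ranked 41.3 and 37.1 in T1 and 4.67 and 0.671 in T2. The Smad3 region chr9:63678145-63678608 ranked 51.3 and 61.3 in T1 and 18.6 and 8.37 in T2. Rab11fip4, which encodes an effector of recycling endosomes, held the last of them, at 53.36 and 49.95 in T1 and 10.5 and 6.36 in T2. These regions were picked as extremes of 1028, so their differences are descriptions.

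The windows also held regions of 1 group, with a peak in both of its libraries and in neither of the other. Of 1563 regions in the windows, 81 were T2-only (5.18%, Wilson interval 4.19 to 6.40), where 6.9% of all regions were, and 31 were T1-only (1.98%, 1.40 to 2.80), where 2.34% were. The windows were chosen for shared regions, and 65.8% of their regions were shared against 56.8% overall. Among group-only regions alone, 72.3% were T2-only (63.4 to 79.8) against 74.7% over all. At least 1 T2-only region was present in 51 dense genes, at least 1 T1-only in 25, and neither in 16. The split moved with list length. With each list shortened to the length of the shortest, 50.6% of group-only regions in the windows were T2-only, and over all regions 4.33% were T2-only and 4.61% T1-only.

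Bcr had 5 T2-only and 0 T1-only regions, the most of any dense gene. The strongest was chr10:75129328-75129717, with −log10 q of 19.4 and 15.9 in T2. Ptpre had 3 T2-only and 0 T1-only, Pxn and Tg had 3 and 1, and Ptk2b had 3 and 2. The Ptk2b region chr14:66175680-66176114 had −log10 q of 40.5 and 20.9, and the Tg region chr15:66708653-66708971 had 33.6 and 19.6. Ptpre thus had T2-only regions and no T1-only one, while its shared regions ranked lower in T2.

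Rftn1 had the most T1-only regions, 3 against 1 T2-only, and its shared regions ranked higher in T1 too, at 60.6 and 59.4 against 48.7 and 53.2 in T2. Its strongest T1-only region, chr17:50050336-50050914, had −log10 q of 31.1 and 31.9. Dab2ip and Ubash3b had 2 T1-only and 0 T2-only, and Prkch had 2 of each. The Dab2ip region chr2:35578861-35579167 had 27.4 and 31.5, although the shared regions of that gene ranked higher in T2. The Pxn T1-only region chr5:115500424-115500800 had 28.2 and 35.6, and that of Arid5b, chr10:68085557-68085934, had 35.0 and 33.5.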

How the data were processed

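ATAC-seq peaks of 4 libraries (T1 and T2, 2 each) were used. Per the submitters' processing notes, Bowtie2, SAMtools and MACS2 were used with mouse build mm10; their versions and settings were not given in the sources used here. The authors' deposited lists give each peak a score, a fold enrichment (a ratio to local background) and −log10 p and q values, from which the smallest −log10 q kept was 2. The score was not used. The deposited summit offset (distance of the summit from the peak start) served only an alternative that used 250 bp either side of summits.

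Peaks on chromosomes 1 to 19 that shared 1 bp or more were joined into 76424 regions. Midpoints were assigned to RefSeq protein-coding genes (GRCm38.p6). Differences were tested by exact permutation over libraries, shares were given 95% Wilson intervals, and no test was made over regions or genes. The peak lists carry no read counts, so precision rests on 2 libraries a group. Replicate numbers were not taken to pair libraries, since no label links equal numbers.

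The dense genes, the gene lists and the tests were chosen with earlier results of these data known. Named genes, leaving out predicted models, were the 10 with most regions, the 10 densest per 10 kb, up to 4 of each list, 5 per direction by group difference and by group-only regions, and up to 5 at exactly 12 and 11. The 10 regions of highest mean percentile and 5 per direction of widest group difference were named too. Ranks among shared regions were added after the data were seen, because lists of different length do not share a percentile scale. Alternatives changed the peak threshold, list length, overlap, window, minimum number of regions and libraries. The counting was tested on simulated lists. Python 3.11.15, pandas 2.3.3, numpy 2.4.6 and scipy 1.17.1 were used. Some members and lists are not reported here.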

Additional observations from a re-analysis of the deposited data

How the results depend on the processing

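The number of dense genes depends on the definition. It was 77 as reported, 24 with −log10 q of at least 10, 43 where peaks had to cover at least 0.5 of a region, 49 with a window of 5 kb, 136 with 20 kb, 188 with 10 or more regions and 15 with 15 or more. Leaving out 1 library at a time gave 84 to 110. It was 66 with −log10 q of at least 5, 57 with lists of equal length and 71 with windows around summits. In all 5 settings that change the peaks or regions, 19 of the 77 kept 12 or more, among them Ksr1, Septin9, Nfix, Smad3, Bcr and Ptk2b. Zfpm1, Kdm2b and Jak1 fell to 8, 8 and 7 with −log10 q of at least 10.

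Pooled regions of dense genes, at start sites and away, were weaker than other shared regions under every alternative run. They were lower by 3.33 to 14.2 percentile points. The alternatives were not run for regions away from start sites alone. There the difference in rank as reported was 0.487 ± 0.693 (SD over libraries), and by fold enrichment dense-gene regions were lower in every library. The T2 minus T1 difference of 5.33 in within-list percentile turned to −0.741 with lists of equal length and to −0.363 as ranks among shared regions. It ran from 3.45 to 7.66 without 1 library. T2-only regions, 5.18% of the regions in the windows, came to 3.75% with equal list length (4.33% of all regions) and to 7.59 to 10.98% without 1 library (9.50 to 14.95% of all). T1-only regions, 1.98%, came to 2.84% with −log10 q of at least 10 (2.24% of all), 3.65% with equal list length (4.61% of all) and 2.70 to 5.75% without 1 library (3.28 to 5.998% of all), where the remaining library alone decides for its group. Taking the replicate number as a replicate block left 5.33 (exact permutation p = 0.5). The causes of the remaining changes were not tested. Read depth, which limits weak peaks, is unknown.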
